A study of Drosophila melanogaster with 36 samples.

Results

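The Bomanins are a family of short secreted peptides of the fly humoral immune response. The genes described are BomS1, BomS2, BomS3, BomS5, BomBc1, BomBc2, BomBc3, BomT1, BomT2 and BomT3, which were listed by symbol and found through their FlyBase identifiers. No cutoff on a measured value picked them, but they were chosen with earlier results of these data known. They make up 10 of the 17611 genes with counts in each of 36 RNA-seq libraries of Drosophila heads.

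The heads came from 3 genotypes. All are in a w strain and carry 1 copy of the driver orco-Gal4. dnmnatOE has 5xUAS-dnmnat opposite the driver on the second chromosome and 5xUAS-GFP::RpL10Ab/+ on the third. Wild type has orco-Gal4/+ with the same 5xUAS-GFP::RpL10Ab/+, and background has orco-Gal4/+ with no further transgene and hence no tag. The dnmnat transgene encodes the fly enzyme of NAD synthesis that delays the degeneration of cut axons, and the other encodes a ribosomal protein with a GFP tag. The driver acts in olfactory sensory neurons, at which both transgenes were aimed. Heads were collected 7 days after ablation of the antennae and maxillary palps (7 dpa) or from uninjured animals. For each genotype and condition there were 3 libraries of input, the RNA of whole heads, and 3 of pulldown, the RNA on anti-GFP beads (TRAP), which makes 12 groups. Each genotype and condition used 300 animals, and the labels call the 3 libraries technical replicates while the study's replication statement speaks of biological ones. The p-values below therefore measure only the spread between these libraries. The age of the uninjured animals at collection is not given in the sources used here, so injury and age cannot be told apart.

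Bomanin genes are transcribed mainly in the fat body, the insect counterpart of liver and adipose tissue, when the Toll pathway is active. In that pathway, recognition proteins detect bacterial peptidoglycan or fungal glucan, a cascade of serine proteases cleaves the cytokine Spätzle, and Spätzle activates the receptor Toll, which releases the NF-kB factors Dif and Dorsal from the inhibitor Cactus. Loss of the cluster described next makes flies susceptible to fungi and Gram-positive bacteria. The family is sorted by peptide architecture: the short forms (BomS) hold little more than the Bomanin motif, the tailed forms (BomT) have the motif with an extension, and the bicipital forms (BomBc) hold a pair of motifs joined by a linker.

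Of the 10 genes, 8 lie on chromosome arm 2R of the Release 6 assembly, in a stretch of 9237 nt from position 18381393 to 18390629. The annotation places 10 Bomanin genes in that stretch and no other gene between them. From left to right they are BomT1, BomBc1, BomS1, BomS4, BomBc2, BomS2, BomS3, BomT2, BomS5 and BomS6, where BomS4 and BomS6 are not among the listed genes. BomT1, BomBc1, BomBc2 and BomS6 are on the minus strand and the others on the plus strand. BomBc2 (2R, 18384824 to 18385589) overlaps BomS4 on the opposite strand by 88 nt, and the strand setting of the read counting is not given in the sources used here. BomT3 (3R, 22085374 to 22086397, minus strand) and BomBc3 (3R, 22087075 to 22088501, plus strand) form a separate pair. All are protein-coding, with between 218 nt of exon in BomS5 and 1301 nt in BomBc3. The short forms encode peptides that resemble each other closely, and how reads that match several genes were treated is not given, so values of single BomS genes carry that uncertainty.

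The inputs held 6628633 to 22329307 counts on genes, and the pulldowns 644358 to 2057294. Levels are given as CPM, the counts of a gene relative to its library size after scaling by the trimmed mean of M-values (TMM). Calls required, in edgeR's quasi-likelihood test, a Benjamini-Hochberg adjusted p no higher than 0.05 together with an absolute log2 fold change above 0.6. The targeted gene Nmnat was at 17.2 to 30.2 CPM in the 6 inputs labelled dnmnatOE, 20 to 25.8 CPM in the 6 of wild type and 18.5 to 27.9 CPM in the 6 of background, so its level does not check that label. The summed level of 8 olfactory neuron genes was at most 4 CPM in every injured input and at least 18.6 CPM in every uninjured one. TMM factors were 0.678 to 0.695 in injured dnmnatOE inputs, 0.865 to 0.869 in injured wild type inputs and 1.1 to 1.19 in the other 4 groups. Yolk protein genes (Yp1, Yp2, Yp3) alone made up 240000 to 266000 CPM at 7 dpa in dnmnatOE heads and 136000 to 147000 CPM in wild type heads, but 57800 to 66200 CPM in uninjured heads of any genotype. Scaling by total counts alone instead puts the median log2 fold change of all genes at -0.81 for injury in dnmnatOE and -0.40 for injury in wild type. At 7 dpa it puts that median at -0.67 for dnmnatOE over background, -0.33 for dnmnatOE over wild type and -0.33 for wild type over background. With TMM these medians are within 0.064 of 0, and between uninjured groups both scalings give medians within 0.02 of 0.

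The 10 Bomanins together were lower in inputs labelled dnmnatOE than in those of the other genotypes, uninjured and injured. Their summed level was 294 ± 15.1 CPM in uninjured dnmnatOE heads, 543 ± 6.66 CPM in wild type heads and 570 ± 30.5 CPM in background heads (SD, n = 3 libraries each). At 7 dpa it was 300.0 ± 42.3 CPM in dnmnatOE heads, 624 ± 20.8 CPM in wild type heads and 526 ± 48.1 CPM in background heads. In both conditions the highest dnmnatOE library (311 CPM uninjured and 349 CPM injured) lay below the lowest library of the other genotypes (535 CPM uninjured and 471 CPM injured). The makeup of the sum differed as well. BomBc2 provided 13.4% ± 1.01 of it in uninjured dnmnatOE heads, against 37.1% ± 1.82 in wild type and 32.5% ± 0.971 in background. At 7 dpa it provided 36.4% ± 0.462 in dnmnatOE heads, against 53.8% ± 1.84 in wild type and 45% ± 1 in background.

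**Figure D1:**
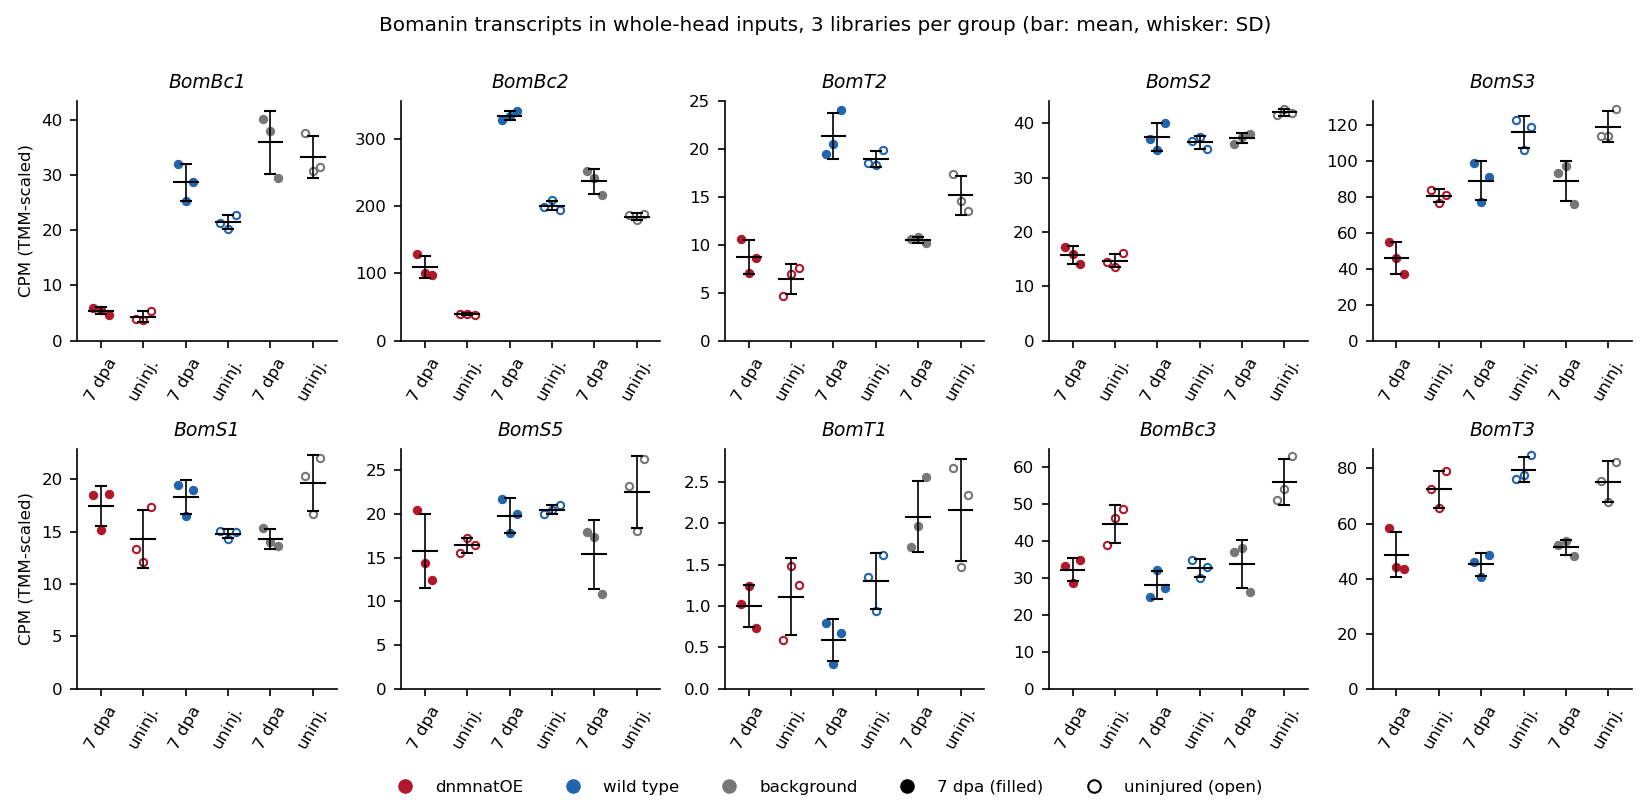
Level of each of the 10 Bomanins (CPM, linear axes from 0) in the 18 inputs; each point is a library, filled at 7 dpa and open when uninjured, with the mean as a bar and the SD as a whisker for each genotype. BomBc1, BomBc2, BomT2 and BomS2 sit lower in dnmnatOE heads than in wild type heads in both conditions, while the libraries of BomT3 and BomS1 overlap.

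All 10 genes had counts in every input, from 5 counts of BomT1 in 1 wild type library to 6570 of BomBc2. Compared per kilobase of exon, the order in wild type uninjured heads was led by BomBc2 with 283 ± 10.4 CPM per kb. BomS3 followed with 151 ± 11.5 CPM per kb, then BomT3 with 121 ± 7.11 CPM per kb. BomS2 (99.4 ± 3.16 CPM per kb) and BomS5 (94 ± 2.2 CPM per kb) were next to each other in this order. Below them came BomT2 with 49.6 ± 2.17, BomBc1 with 45.9 ± 2.76 and BomS1 with 41 ± 1.25 CPM per kb, where BomT2 and BomBc1 do not differ beyond their spread. BomBc3 had 25.1 ± 1.88 and BomT1 3.34 ± 0.873 CPM per kb. In uninjured dnmnatOE heads the order was another one. BomT3 (110 ± 10.1 CPM per kb) and BomS3 (105 ± 4.65 CPM per kb) stood at the top within each other's spread, BomS5 was next with 75.2 ± 4.19 CPM per kb, and BomBc2 had 55.1 ± 1.51 CPM per kb. BomS2 (40.1 ± 3.57), BomS1 (39.5 ± 7.75) and BomBc3 (34.2 ± 3.9 CPM per kb) were close to each other there, followed by BomT2 with 16.7 ± 4.1, BomBc1 with 9.29 ± 1.98 and BomT1 with 2.86 ± 1.2 CPM per kb. Transcripts this short can be recovered unevenly when a library is made, so the order between genes is less sure than the order between groups for 1 gene.

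The comparison of dnmnatOE with wild type addresses which head transcripts differ between these genotypes. In it the dnmnat transgene and alleles of the second chromosome that carries it cannot be told apart. In uninjured inputs, 4 of the 10 Bomanins were called lower in dnmnatOE (BomBc2, BomBc1, BomT2 and BomS2) and none higher, where 6.44% of all 10437 genes tested were called lower and 1.1% higher. At 7 dpa the same 4 genes and BomS3 were called lower, 5 of 10, against 7.27% of all genes, and none was called higher, against 5.98%. Over the 10 genes the median log2 fold change came to -0.42 in uninjured and -0.64 in injured heads, beside -0.012 and 0.0005 for all genes tested. A single fit of all 36 libraries, inputs and pulldowns together, no longer calls BomS2 (adjusted p in edgeR 0.11 uninjured and 0.075 at 7 dpa) and BomT2 (0.18 and 0.22), at log2 fold changes of -1.25 to -1.52.

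BomBc2, the bicipital gene in the middle of the cluster, had 40.1, 39.4 and 38 CPM in uninjured dnmnatOE heads, against 199, 209 and 195 CPM in wild type heads. Every dnmnatOE library lay far below every wild type library. The log2 fold change was -2.36 ± 0.0862 (SE), or 5.13-fold lower, at an adjusted p of 5.6e-29 in edgeR. At 7 dpa BomBc2 had 129, 101 and 98.3 CPM in dnmnatOE heads and 328, 335 and 342 CPM in wild type heads, again without overlap. That difference was -1.61 ± 0.0825 (adjusted p in edgeR 1.2e-21), or 3.06-fold.

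BomBc1, the other bicipital gene of the cluster, was among the lowest Bomanins in dnmnatOE heads. It had 3.83, 3.79 and 5.42 CPM in uninjured dnmnatOE heads and 21.4, 20.2 and 22.8 CPM in wild type heads. At 7 dpa BomBc1 had 5.86, 5.59 and 4.69 CPM in dnmnatOE heads and 32.1, 25.4 and 28.7 CPM in wild type heads. The groups did not overlap in either condition, and the gene was 4.96-fold lower uninjured (log2 fold change -2.31 ± 0.197, adjusted p in edgeR 4.2e-14) and 5.33-fold lower at 7 dpa (-2.41 ± 0.198, 3e-14).

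BomT2, a tailed form, had 4.61, 6.95 and 7.59 CPM in uninjured dnmnatOE heads and 18.6, 18.4 and 19.9 CPM in wild type heads. The 3 dnmnatOE libraries were all below the 3 of wild type, a difference of -1.58 ± 0.228 on the log2 scale (adjusted p in edgeR 2.3e-07). The injured heads had 10.6, 7.1 and 8.58 CPM in dnmnatOE and 19.5, 20.5 and 24.1 CPM in wild type, or -1.28 ± 0.226 on the log2 scale (adjusted p in edgeR 1.1e-05).

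BomS2 was the short form with the largest difference between dnmnatOE and wild type. It had 14.5, 13.6 and 16.1 CPM in uninjured dnmnatOE heads and 36.8, 37.5 and 35.2 CPM in wild type heads. At 7 dpa BomS2 had 17.2, 16 and 14 CPM in dnmnatOE heads and 37.2, 35.1 and 40.1 CPM in wild type heads. The difference between the genotypes was nearly the same in both conditions, 2.48-fold uninjured (log2 fold change -1.31 ± 0.146, adjusted p in edgeR 2.6e-10) and 2.38-fold at 7 dpa (-1.25 ± 0.148, 1.8e-09).

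BomS3, the short form with the highest level per kb in wild type heads, had 83.8, 76.7 and 81.2 CPM in uninjured dnmnatOE heads and 123, 106 and 119 CPM in wild type heads. These libraries did not overlap, but the log2 fold change of -0.53 ± 0.11 (adjusted p in edgeR 0.00022) was short of the fold threshold. At 7 dpa BomS3 had 54.7, 46.2 and 37 CPM in dnmnatOE heads and 98.8, 77.2 and 91.1 CPM in wild type heads, and was called lower by 1.94-fold (-0.95 ± 0.113, 2.5e-09).

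The other 5 Bomanins were not called in either condition. BomS1 had log2 fold changes of -0.056 ± 0.198 uninjured and -0.069 ± 0.198 at 7 dpa, with 95% intervals of -0.443 to 0.331 and -0.456 to 0.318. BomS5 had -0.32 ± 0.202 and -0.33 ± 0.204, with intervals of -0.716 to 0.0739 and -0.728 to 0.0732. For BomT3 the intervals were -0.362 to 0.0881 uninjured and -0.121 to 0.343 at 7 dpa. BomBc3 was the only Bomanin above wild type in every uninjured dnmnatOE library (38.8, 46.2 and 48.5 CPM, against 34.9, 30 and 32.9 CPM). Its log2 fold change of 0.45 ± 0.145 (adjusted p in edgeR 0.024) did not reach the fold threshold. For BomT1, with 5 to 28 counts per library in these groups, the interval ran from -1.78 to 1.34 uninjured and from -0.881 to 2.37 at 7 dpa, so a difference of several-fold would not have been detectable at this depth. Counted by libraries without overlap, 6 of 10 Bomanins were lower and 1 higher in uninjured dnmnatOE heads, against 16.1% and 13.2% of all genes. At 7 dpa 5 were lower and none higher, against 16.1% and 21.1%.

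**Figure D2:**
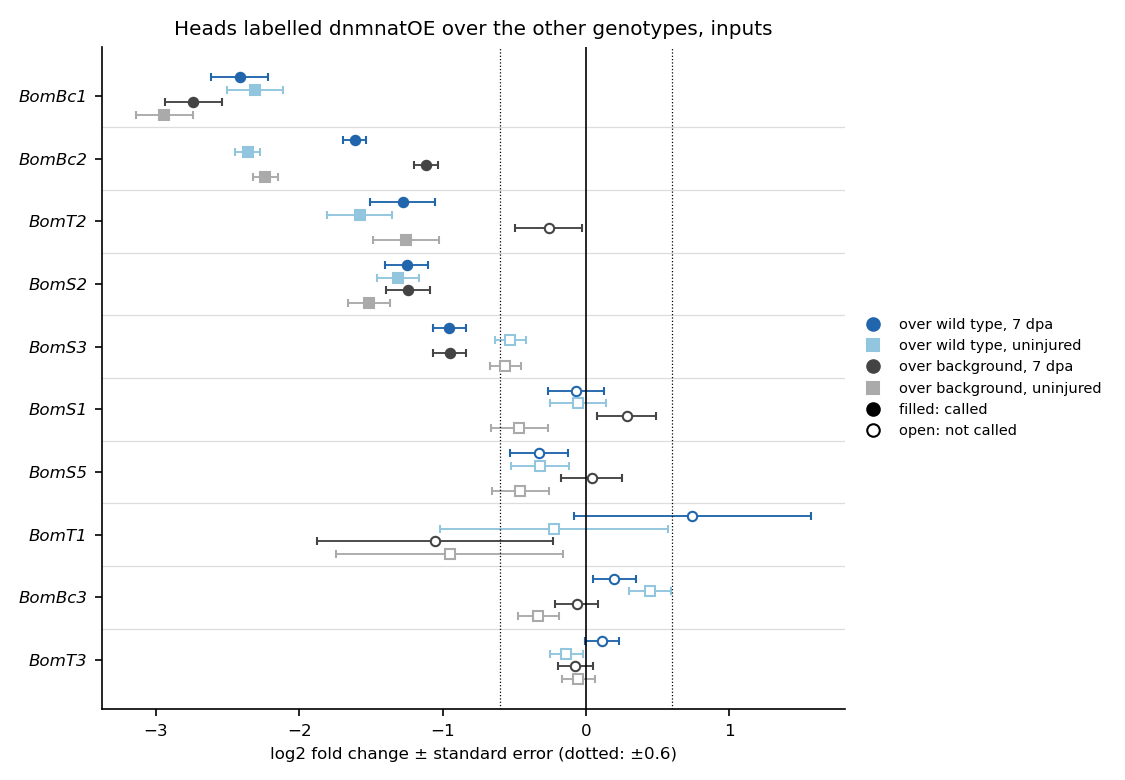
Log2 fold change of each Bomanin in inputs labelled dnmnatOE over wild type (blue) and over background (gray), at 7 dpa (circles) and uninjured (squares), with the standard error of the fit as a bar. Filled symbols passed both thresholds, and the dotted lines mark the fold threshold of 0.6; all filled symbols lie on the left.

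The comparison of dnmnatOE with background uses the same dnmnatOE libraries, so its values stand beside the first and are not independent of it. In uninjured inputs BomBc1, BomBc2, BomS2 and BomT2 were called lower, 4 of 10, against 4.13% of all genes, and none was called higher, against 2.39%. At 7 dpa BomBc1, BomS2, BomBc2 and BomS3 were called lower, 4 of 10, against 14.7% of all genes, and none higher, against 18.9%. BomBc1 was 7.69-fold lower uninjured (log2 fold change -2.94 ± 0.199) and 6.67-fold lower at 7 dpa (-2.74 ± 0.202), its background libraries holding 37.7, 30.8 and 31.4 CPM uninjured and 40.2, 38.1 and 29.5 CPM at 7 dpa. BomBc2 was 4.71-fold lower uninjured (-2.24 ± 0.0859) and 2.16-fold lower at 7 dpa (-1.11 ± 0.0828). BomS2 was 2.86-fold lower uninjured and 2.37-fold lower at 7 dpa. BomT2 was called lower uninjured (-1.25 ± 0.227), a call lost in the single fit of all 36 libraries (adjusted p 0.53), whereas at 7 dpa it had -0.26 ± 0.236 and its groups overlapped. The highest adjusted p of these calls in edgeR was 3.4e-05. The direction was lower for all 10 genes in uninjured heads and for 8 of 10 at 7 dpa, while 49.8% and 49.4% of all genes were below 0. With total-count scaling 8 Bomanins are called lower at 7 dpa, so the count of 4 in injured heads depends on the scaling, and that of uninjured heads does not. That scaling puts the median of all genes at 7 dpa beyond the fold threshold. The share of all genes called with it is not given here, so the 8 cannot be read as a result about the Bomanins.

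Sums of cell marker genes also differed between these groups, not always in the direction of the Bomanins. The summed level of 8 fat body genes was 2820 to 3010 CPM in uninjured dnmnatOE heads, 4610 to 4640 CPM in wild type heads and 2880 to 2950 CPM in background heads, with all 8 genes detected in each group. Of the 8, 4 were called lower and none higher in dnmnatOE than in wild type heads, against 6.44% and 1.1% of all genes. Against background, 3 of the 8 were called lower and 1 higher, where 4.13% and 2.39% of all genes were, with a median log2 fold change of -0.39 over the list. At 7 dpa the fat body sum was 19400 to 19900 CPM in dnmnatOE heads, 12100 to 12300 CPM in wild type heads and 4550 to 4660 CPM in background heads, an order opposite to that of the Bomanins in dnmnatOE and wild type. There 4 of the 8 genes were called higher and 1 lower in dnmnatOE than in wild type, where 5.98% and 7.27% of all genes were. Than in background, 6 were called higher and 1 lower, where 18.9% and 14.7% of all genes were. The summed level of 7 hemocyte genes was 733 to 787 CPM in uninjured dnmnatOE heads, 1180 to 1210 CPM in wild type heads and 986 to 1070 CPM in background heads, with all 7 genes detected in each group. At 7 dpa it was 1740 to 1910 CPM in dnmnatOE heads, 2720 to 2840 CPM in wild type heads and 735 to 770 CPM in background heads. Against wild type, 5 of the 7 were called lower in dnmnatOE uninjured and 2 at 7 dpa, where 6.44% and 7.27% of all genes were. None was called higher, where 1.1% and 5.98% of all genes were. Against background, 3 were called lower and none higher uninjured, where 4.13% and 2.39% of all genes were. At 7 dpa 4 were higher and 1 lower (median log2 fold change 2.13), where 18.9% and 14.7% of all genes were. That direction was opposite to that of the 4 called Bomanins. The summed level of 2 male marker genes was 346 to 369 CPM in uninjured dnmnatOE, 238 to 264 CPM in wild type and 270 to 281 CPM in background heads. At 7 dpa it was 114 to 121, 126 to 141 and 166 to 222 CPM in the same order. Both genes were called lower with injury in dnmnatOE and wild type heads, against 24.2% and 10.7% of all genes, and neither in background heads, against 5.25%. Neither was called between dnmnatOE and wild type, where 1.1% of all genes were called higher and 6.44% lower uninjured, and 5.98% and 7.27% at 7 dpa. In such bulk samples fewer cells of a type and less RNA per cell cannot be told apart. The part of these cell types, or of the mix of sexes, in the Bomanin differences was not tested.

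**Figure D3:**
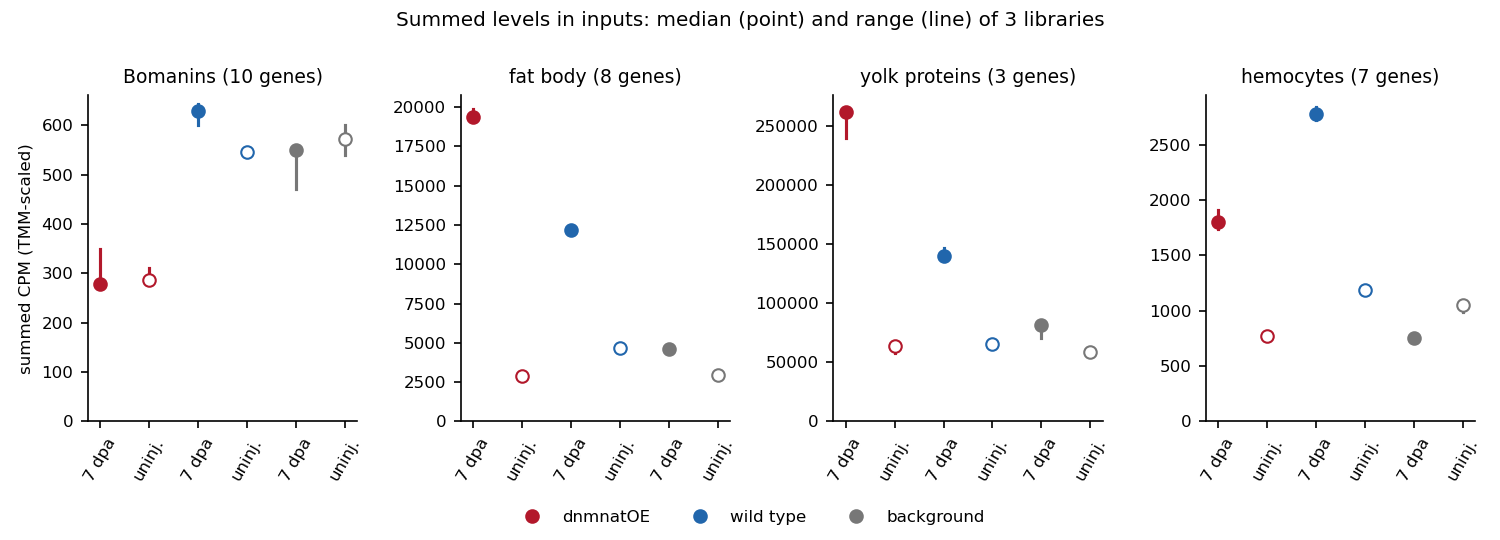
Summed CPM (linear axes from 0) of the 10 Bomanins, 8 fat body genes, 3 yolk protein genes and 7 hemocyte genes in the inputs, with the median of 3 libraries as a point and their range as a line. The fat body and yolk protein sums are highest in dnmnatOE heads at 7 dpa, where the Bomanin sum is 273 to 349 CPM.

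The comparison of wild type with background inputs is between genotypes without the dnmnat transgene. BomBc3 and BomBc1 were called lower in uninjured wild type heads, 2 of 10, against 1.15% of all genes, and none higher, against 5.37%. BomBc3 had 34.9, 30 and 32.9 CPM in wild type heads and 51, 53.9 and 62.9 CPM in background heads, or -0.78 ± 0.144 on the log2 scale (adjusted p in edgeR 4.1e-05). BomBc1 had -0.63 ± 0.177 (adjusted p 0.0085), a call that is lost without background replicate 1 (-0.53, adjusted p 0.092) or wild type replicate 2 (-0.59, 0.052). At 7 dpa only BomT2 was called, higher in wild type heads (19.5, 20.5 and 24.1 CPM, against 10.6, 10.8 and 10.2 CPM in background heads), 1 of 10 against 11.6% of all genes, with 3.05% of all genes called lower. Its groups did not overlap, and the log2 fold change was 1.02 ± 0.23 (adjusted p in edgeR 0.00042). BomBc2 was higher in every injured wild type library by 0.50 ± 0.0806, short of the fold threshold. None of these 3 calls holds in the single fit of all 36 libraries. With total-count scaling 4 Bomanins are called at 7 dpa, BomT2 higher and BomBc1, BomBc3 and BomT1 lower in wild type than in background heads. That scaling moves the median of all genes lower too, and no share of all genes is set beside this count.

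The comparison of injured with uninjured heads within each genotype addresses the change 7 days after the antennae and palps were removed. BomBc2 was called higher in dnmnatOE and wild type heads, and 1 Bomanin was called lower in each genotype. In dnmnatOE heads BomBc2 was called higher, 1 of 10 against 26.5% of all genes, and BomS3 lower, 1 of 10 against 24.2%. In wild type heads BomBc2 was called higher, against 17.8% of all genes, and BomT3 lower, against 10.7%. In background heads none was called higher, against 9.99%, and BomBc3 lower, against 5.25%. The count in dnmnatOE and background depends on the scaling: with total-count scaling 5 Bomanins are called lower and 1 higher in dnmnatOE, and 3 lower in background. In dnmnatOE that scaling also moves the median of all genes lower, and no share of all genes is set beside these counts. Without the fold threshold 4 are called in dnmnatOE and 5 in background. An unadjusted p under 0.05 in edgeR was reached by 5 Bomanins and 6611 of all 10437 genes in dnmnatOE. In background it was reached by 7 Bomanins and 3723 genes. Over the 10 genes the median was 0.023 in dnmnatOE, -0.0043 in wild type and -0.44 in background on the log2 scale, beside -0.064, -0.022 and 0.0088 for all genes in the same order.

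BomBc2 rose 2.79-fold in dnmnatOE heads, to 129, 101 and 98.3 CPM at 7 dpa against 40.1, 39.4 and 38 CPM uninjured (log2 fold change 1.48 ± 0.0856, adjusted p in edgeR 2.6e-21). In wild type heads it rose 1.67-fold, to 328, 335 and 342 CPM against 199, 209 and 195 CPM uninjured (0.74 ± 0.0799, adjusted p in edgeR 3.6e-11). In background heads it had 253, 242 and 216 CPM at 7 dpa and 187, 179 and 188 CPM uninjured, or 0.36 ± 0.0808 on the log2 scale, under the fold threshold (adjusted p in edgeR 4e-04). The injured libraries lay above the uninjured ones in all 3 genotypes. With total-count scaling the change is 0.73 in dnmnatOE, still called, and 0.35 in wild type, no longer called. In the single fit of all 36 libraries the change in wild type is 0.58 (adjusted p 0.061).

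BomS3 fell 1.75-fold in dnmnatOE heads, to 54.7, 46.2 and 37 CPM at 7 dpa against 83.8, 76.7 and 81.2 CPM uninjured (log2 fold change -0.81 ± 0.113, adjusted p in edgeR 2e-08). Its change was -0.38 ± 0.109 in wild type heads and -0.42 ± 0.112 in background heads, where the groups did not overlap but the fold threshold was not met. BomT3, the tailed gene on 3R, fell 1.76-fold in wild type heads, to 46.1, 40.7 and 48.6 CPM at 7 dpa against 76.1, 77.8 and 84.9 CPM uninjured (-0.82 ± 0.117, adjusted p in edgeR 5.4e-08). In dnmnatOE and background heads its injured libraries were also all below the uninjured ones, with log2 fold changes of -0.57 ± 0.117 and -0.55 ± 0.12.

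BomBc3, its neighbor, fell 1.66-fold in background heads, to 37, 37.9 and 26.2 CPM at 7 dpa against 51, 53.9 and 62.9 CPM uninjured (log2 fold change -0.73 ± 0.149, adjusted p in edgeR 9.6e-05). That call is lost without injured background replicate 3 (-0.58, adjusted p 0.0041) and in the single fit of all 36 libraries (adjusted p 0.34). BomS2 and BomBc1, whose differences between the genotypes were of like size in both conditions, had changes with injury of 0.097 ± 0.151 and 0.31 ± 0.211 in dnmnatOE heads and 0.037 ± 0.141 and 0.42 ± 0.177 in wild type heads, none called. Without overlap between injured and uninjured libraries, 3 of 10 Bomanins were lower in dnmnatOE heads, against 30.7% of all genes, 3 in wild type heads, against 23.6%, and 7 in background heads, against 19.6%. Higher without overlap were BomBc2 alone in dnmnatOE heads, against 32% of all genes, BomBc2, BomBc1 and BomS1 in wild type heads, against 27.3%, and BomBc2 alone in background heads, against 23.1%.

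**Figure D4:**
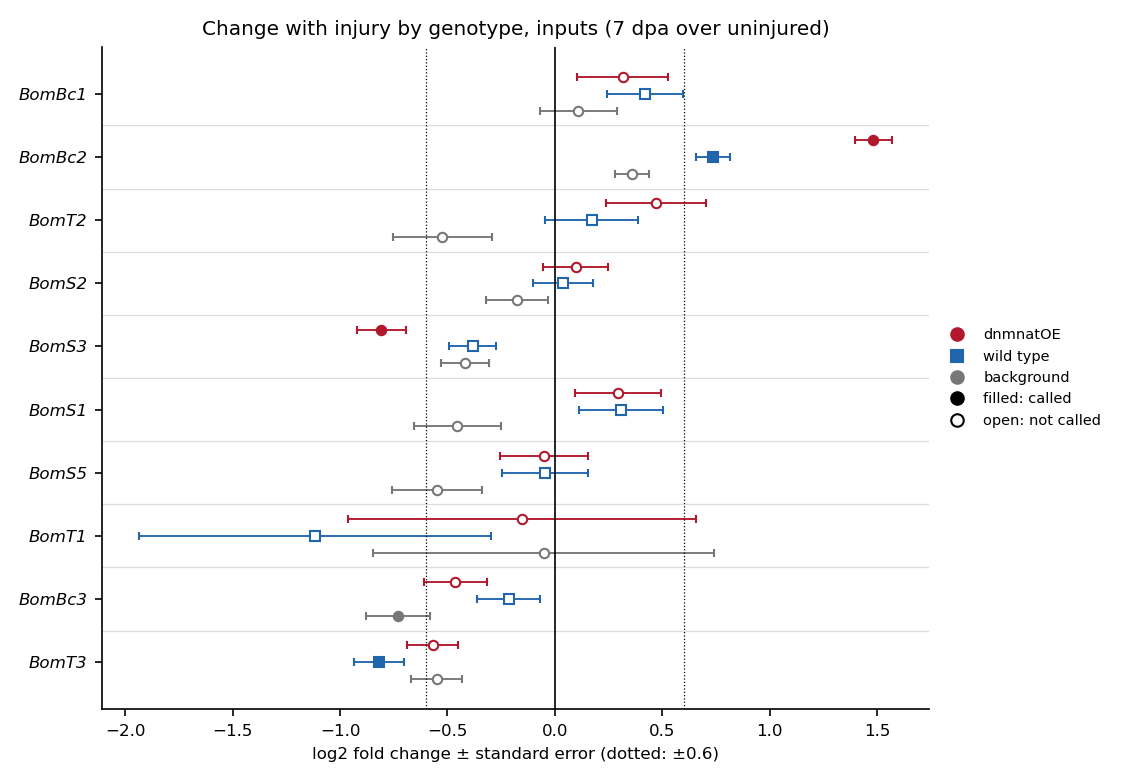
Log2 fold change of each Bomanin at 7 dpa over uninjured in inputs of dnmnatOE (red), wild type (blue) and background (gray), with the standard error of the fit as a bar; filled symbols passed both thresholds. BomBc2 lies to the right in all 3 genotypes, at 1.48, 0.74 and 0.36, and BomT3 and BomS3 lie to the left.

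The change with injury was then compared between genotypes. For BomBc2 it was larger in dnmnatOE than in wild type by 0.75 ± 0.116 on the log2 scale (adjusted p in edgeR 7.9e-07), the 1 Bomanin of 10 called in this contrast, where 13% of all genes were called with a more positive and 9.15% with a more negative change. That difference is 0.38 with total-count scaling and 0.65 in the single fit of all 36 libraries, and neither passes both thresholds. For BomS3 the change was more negative in dnmnatOE by -0.43 ± 0.157 (adjusted p 0.035), under the fold threshold. For BomBc1, BomS1, BomS2 and BomS5 the differences lay between -0.10 and 0.06. Between wild type and background none was called by edgeR or by DESeq2, against 6.87% of all genes by edgeR. An unadjusted p under 0.05 in edgeR was reached by 4 Bomanins and by 2383 of all 10437 genes tested. The smallest adjusted p among the Bomanins was that of BomBc2 (difference 0.38 ± 0.113, adjusted p 0.019).

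Within the 2R cluster the genes with a called genotype difference were not all neighbors. From left to right, the log2 fold changes of dnmnatOE over wild type in uninjured inputs were -0.22 for BomT1, -2.31 for BomBc1 and -0.056 for BomS1. BomS1 lies next to BomBc1, and its libraries overlapped between the genotypes. BomS4, an unlisted short form, had 0.17 ± 0.256, and BomBc2, which overlaps it, had -2.36. Further right were BomS2 with -1.31, BomS3 with -0.53, BomT2 with -1.58, BomS5 with -0.32 and BomS6 with -0.64. BomS4 was not called in any comparison of inputs. BomS6 was called lower in uninjured dnmnatOE than in background heads (-0.74 ± 0.248), lower with injury in background heads (-1.21 ± 0.264) and higher at 7 dpa in wild type than in background heads (0.73 ± 0.265), with adjusted p-values in edgeR of 0.032, 0.00024 and 0.035. The pair on 3R was not called in any comparison of dnmnatOE with another genotype.

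**Figure D5:**
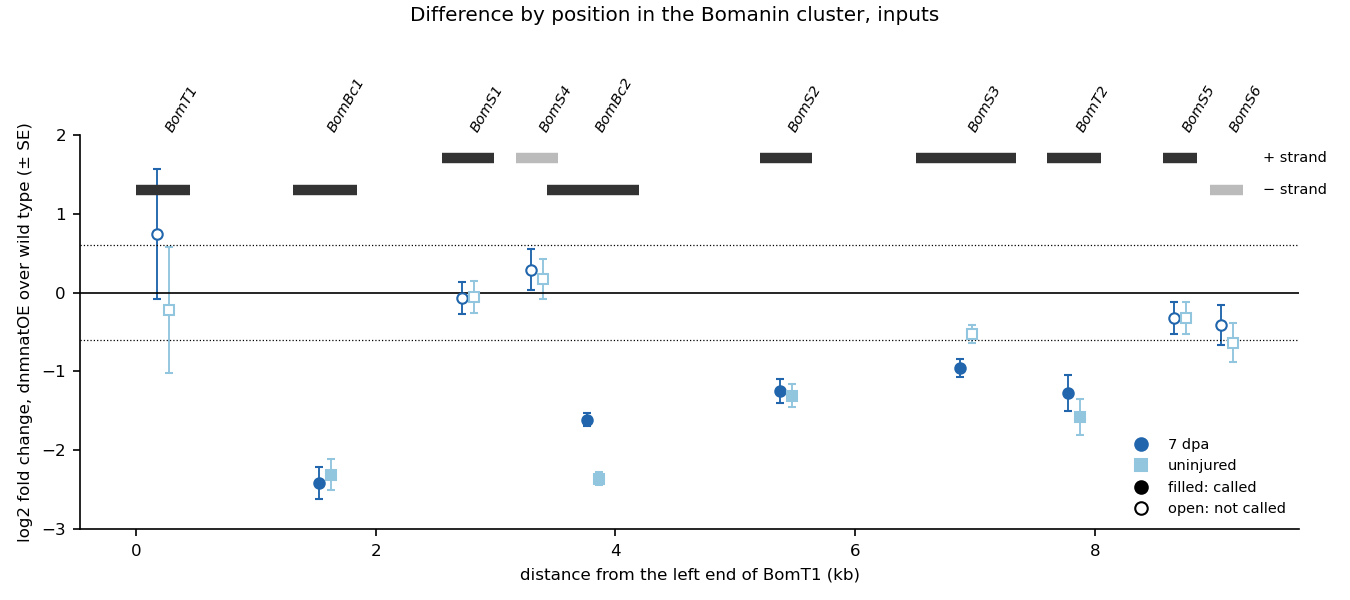
Log2 fold change of dnmnatOE over wild type in inputs for the 10 Bomanin genes of the 2R cluster, plotted at the middle of each gene by its distance from the left end of BomT1 in kb, at 7 dpa (circles) and uninjured (squares), with standard errors. Bars at the top show gene extents by strand (light bars are BomS4 and BomS6), and uncalled genes such as BomS1 and BomS4 stand between called ones.

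The transgene for dNmnat is on the second chromosome, opposite orco-Gal4, as is this cluster, so alleles of that chromosome and the transgene cannot be told apart. Over the whole arm 2R, 8.11% of the genes tested were called lower in uninjured dnmnatOE heads than in wild type heads, with 9.32% on 2L, 3.92% on 3L, 5.74% on 3R and 5.58% on X. Among the 16 other genes tested within 50 kb of the cluster, 4 were called lower and none higher, where 1.71% of the genes on 2R were. GstE1 and GstE8, glutathione S-transferase genes to the right of the cluster, were called lower in dnmnatOE than in wild type heads by -2.08 and -1.79 on the log2 scale uninjured and by -2.26 and -2.27 at 7 dpa. Idgf5, a chitinase-like growth factor gene and the nearest tested neighbor on the right, and GstE9 were also called lower uninjured (-2.73 and -1.25) but not at 7 dpa (0.22 and -0.18). At 7 dpa 2 of the 16 neighbors were called lower, against 8.29% of the genes tested on 2R, and GstE7 and GstE6 were called higher (1.72 and 0.71), against 7.14%.

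The Bomanins did not vary as 1 block over the 18 inputs, which are 6 groups of 3 libraries. As a description of log2 CPM over these libraries, BomS2 and BomBc1 were the most alike pair (Pearson r 0.979), and BomBc2 was most like BomBc1 (0.875) and BomT2 most like BomBc2 (0.834). BomBc3 was most like BomT3 (0.604), its neighbor on 3R, and least like BomBc2 (-0.382). Outside the family, the genes whose log2 CPM most resembled the mean standardized pattern of the 10 Bomanins were Ubi-p5E (0.916, a polyubiquitin gene), CG13912 (0.871), CG13807 (0.869), CG13018 (0.862), CG1416 (0.86), CG44140 (0.857), Clc (0.853), CG10433 (0.853), Prx2 (0.839) and CG42260 (0.837). These values share library composition and group structure across the same 18 libraries.

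The upstream genes of the Toll pathway were described from lists of named genes. Of 12 genes for recognition proteins, proteases and serpins, 12 rose with injury in dnmnatOE heads (median log2 fold change 2.58), against 26.5% of all genes, 12 in wild type heads (1.59), against 17.8%, and 7 in background heads (0.90), against 9.99%. nec, which encodes the serpin Necrotic that restrains the cascade, averaged 2620 CPM at 7 dpa and 95.1 CPM uninjured in dnmnatOE heads, and grass, one of the proteases, averaged 500.0 CPM and 37.7 CPM. In wild type heads PGRP-SA, a receptor for peptidoglycan, averaged 117 CPM at 7 dpa and 23.4 CPM uninjured. Between the genotypes, 5 of the 12 were called lower in uninjured dnmnatOE than in wild type heads and none higher (nec -1.83, GNBP3 -1.55), against 6.44% and 1.1% of all genes, whereas at 7 dpa 4 were higher (Hayan 0.78, nec 0.75) and none lower, against 5.98% and 7.27%, in a comparison whose median total-count scaling moves to -0.33. The fat body marker sums of the same groups are given above, and their part in these differences was not tested.

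Of 8 genes for the receptor and its intracellular pathway, none was called by edgeR between dnmnatOE and wild type in uninjured inputs, where 1.1% of all genes were called higher and 6.44% lower. There 1 of the 8 (cact) had an unadjusted p under 0.05 in edgeR, beside 2713 of all 10437 genes tested. At 7 dpa 1 was called, lower, against 7.27% of all genes (Pli -0.69, an E3 ligase that binds the kinase Pelle). With injury 5 of the 8 were called higher and 2 lower in dnmnatOE heads, against 26.5% and 24.2% of all genes. In wild type heads 4 were called higher and 0 lower, against 17.8% and 10.7%. In background heads 2 were called higher and 0 lower, against 9.99% and 5.25%. The adaptor gene Myd88 and the kinase gene pll rose with injury in dnmnatOE heads (1.88 and 2.13) and in wild type heads (1.45 and 1.43).

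Other peptide genes induced by Toll were split, 2 of 6 tested being higher and 1 lower in uninjured dnmnatOE than in wild type heads, against 1.1% and 6.44% of all genes. Drs, which encodes the antifungal peptide Drosomycin, averaged 20.9 CPM in dnmnatOE heads and 5.62 CPM in wild type heads (log2 fold change 1.89), and SPH93, a serine protease homolog, had 1.44. BaraA1, which encodes the precursor of Baramicin peptides and has a near-identical copy, BaraA2, that was at 0 in all inputs, averaged 0.573 CPM in dnmnatOE and 9.72 CPM in wild type heads (-4.13). Mtk, which encodes Metchnikowin, averaged 68.8 CPM in dnmnatOE and 67.9 CPM in wild type heads. With injury Drs rose by 0.73 in dnmnatOE, 2.55 in wild type and 1.52 in background heads, and Dso1, which encodes a Daisho peptide, was called lower in all 3.

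Of 10 tested genes for peptides induced by the Imd pathway, the other NF-kB route of the fly, 5 were higher and none lower in uninjured dnmnatOE than in wild type heads (Dro 2.10, CecA1 1.92), against 1.1% and 6.44% of all genes. When dnmnatOE was set against background, 5 were lower and 1 higher (AttB -3.13, DptB -2.34), against 4.13% and 2.39%. The direction of this list thus turned with the genotype that dnmnatOE was compared with, and that of the called Bomanins did not. With injury 5 of 10 rose in dnmnatOE heads, against 26.5% of all genes, 9 in wild type heads, against 17.8%, and 2 in background heads, against 9.99%.

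In the pulldowns the Bomanins were near the limit of detection. A count of 3, the number that a count of 0 allows, corresponds to 1.46 to 4.66 CPM per library. BomT1 had 0 counts in all 18 pulldowns, and of the other genes only BomS3, BomBc2 and BomT3 were above 0 in every library. Only these 3 passed the filter on low counts, and 7 were not tested. The summed level of the 10 was 46.8 ± 4.96 CPM in uninjured dnmnatOE pulldowns, 96.6 ± 12.2 CPM in wild type and 76.3 ± 31.4 CPM in background (SD, n = 3 libraries each). At 7 dpa it was 58.2 ± 16.9 CPM in dnmnatOE, 107 ± 23.1 CPM in wild type and 122 ± 19.3 CPM in background. Background pulldowns hold no tagged ribosome, so their values are RNA carried by the beads.

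BomBc2 had 13.4, 10.7 and 1.49 CPM in uninjured dnmnatOE pulldowns and 45.8, 44.8 and 60.3 CPM in wild type pulldowns. These libraries did not overlap, and the log2 fold change of -2.55 ± 0.602 (adjusted p in edgeR 0.0029) was the single call among the 3 genes, against 6.64% of all 7213 genes tested. Without dnmnatOE replicate 3, which held 3 counts of the gene, it is -2.00 at an adjusted p of 0.059. At 7 dpa BomBc2 had 18.2, 18.9 and 29.9 CPM in dnmnatOE pulldowns and 60.7, 48.7 and 68.4 CPM in wild type pulldowns, a log2 fold change of -1.39 ± 0.563 that was not called (adjusted p in edgeR 0.26), where 2.61% of all genes were. The single fit of all 36 libraries calls BomBc2 lower in both conditions, and BomBc3 higher in uninjured dnmnatOE. BomBc3 did not pass the filter on low counts in the pulldowns alone. It held 26 counts over the 3 uninjured dnmnatOE pulldowns and 0 over the 3 of wild type, so that call rests on counts near the limit of detection. BomBc2 had 53.5, 75.5 and 43.1 CPM in the injured background pulldowns.

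No Bomanin of the 3 tested was called in a tagged pulldown over the untagged background pulldown by edgeR or DESeq2, in either genotype and either condition, in fits of the pulldowns alone, where edgeR called 3.01% and 3.05% of all genes for wild type and 5.55% and 4.69% for dnmnatOE, uninjured and at 7 dpa. At an unadjusted p under 0.05 in edgeR there was none for wild type, and for dnmnatOE 1 in each condition, BomBc2, which was lower (-1.50 uninjured and -1.35 at 7 dpa). Of all 7213 genes tested, 1127 uninjured and 983 at 7 dpa reached that p for wild type. For dnmnatOE 1029 and 1042 did. The single fit of all 36 libraries tested all 10 Bomanins. It calls BomBc2 and BomT2 lower in dnmnatOE than in background pulldowns uninjured, and BomBc2 and BomBc1 lower at 7 dpa. It also calls BomBc2 higher in wild type than in background uninjured. BomT2 and BomBc1 did not pass the filter on low counts in the pulldowns alone. Over 3 libraries, BomT2 held 0 counts in uninjured dnmnatOE and 7 in uninjured background pulldowns. At 7 dpa BomBc1 held 1 count in dnmnatOE and 18 in background pulldowns. These 2 calls therefore rest on counts near the limit of detection. BomS3 had 19.7, 11.6 and 19.8 CPM in uninjured dnmnatOE pulldowns, 45.8, 16.6 and 10.6 CPM in wild type and 15.5, 35.4 and 20.5 CPM in background, so its groups overlapped. BomT3 ran from 2.36 to 24.8 CPM over all 18 pulldowns. With injury no Bomanin was called in any genotype by either tool in fits of the pulldowns alone, against 11.9% of all genes in dnmnatOE, 6.22% in wild type and 2.58% in background pulldowns by edgeR. An unadjusted p under 0.05 in edgeR was reached by 1525 of all 7213 genes tested in dnmnatOE and by 917 in background pulldowns. BomBc2 was among these, higher in dnmnatOE (1.40 ± 0.589) and background (1.24 ± 0.57) pulldowns. The single fit of all 36 libraries calls it higher in both, together with BomS2 in dnmnatOE. BomS2 did not pass the filter in the pulldowns alone either, and held 31 counts in dnmnatOE at 7 dpa and 9 uninjured.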

How the data were processed

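Fly heads of 3 genotypes, uninjured or 7 dpa, were sequenced as input (poly-A purified) and pulldown (without that step), with 3 libraries per group and no rRNA depletion. The authors deposited raw counts per gene, made with Trimmomatic, HISAT2, SAMtools and HTSeq (versions, counting mode and strand setting not given in the sources used here). Rows that name no gene held 2.84% to 5.12% of the recorded reads in inputs and 57.5% to 70.3% in pulldowns, where ambiguous reads alone were 48.5% to 60.3%, and were left out. The 18 inputs and the 18 pulldowns were fitted separately with edgeR 4.0.16 in R 4.3.3 (filterByExpr, TMM, robust quasi-likelihood, 1 coefficient per group), with p-values adjusted over all 10437 and 7213 genes tested. The thresholds (adjusted p 0.05, absolute log2 fold change 0.6) are those of the study's methods. Standard errors were derived from the fit, as the absolute log2 fold change over the square root of its F statistic. The 95% intervals follow from these by the normal approximation. Alternatives were DESeq2 1.42.0, its size factors, no filter, no fold threshold, 1 fit of all 36 libraries, the replicate number as a block, leaving out each library, and total-count scaling, the last chosen after seeing the data. Tested on simulated input counts (10437 genes), edgeR called 67% of genes changed by 1 on the log2 scale and 91% of those changed by 2. In pulldown counts (7213 genes) it called 29% and 75%. Only genes above a floor on mean counts were changed. Most Bomanins lie below that floor in pulldowns, so these rates do not cover them. Positions and lengths are from Ensembl release 115 of the Release 6 assembly. The Bomanins and the lists of related genes and cell markers were chosen with earlier results of these data known; all 10 Bomanins are named, and in each list at most 4 genes, those with the largest called changes. Of the planned list of Toll-induced peptides, 3 older names of genes already listed were dropped. Neighbors within 50 kb, Mtk, Dso1 and cact were added after values were seen. The chi-square per gene between libraries of 1 group was 4.04 to 34.3 in inputs and 6.66 to 27.5 in pulldowns, so no library was counted as a repeat of another. No sequences are printed.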

Additional observations from a re-analysis of the deposited data

Results flagged for a closer look

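In inputs the change with injury differed between genotypes for 2 Bomanins by the test of the difference itself. For BomBc2 the change was 1.48 in dnmnatOE, 0.74 in wild type and 0.36 in background on the log2 scale. The difference between dnmnatOE and wild type was 0.75 (adjusted p in edgeR 7.9e-07), and that between wild type and background was 0.38 (adjusted p 0.019), under the fold threshold. For BomS3 the change was -0.81 in dnmnatOE and -0.38 in wild type, a difference of -0.43 (adjusted p in edgeR 0.035), also under the fold threshold. At an unadjusted p under 0.05 in edgeR, the contrast of dnmnatOE and wild type held 2 Bomanins and 3883 of all 10437 genes tested. So 2 of 10 does not set the Bomanins apart from other genes. The BomBc2 difference between dnmnatOE and wild type is 0.38 with total-count scaling, and it is not called there or in the single fit of all 36 libraries. All 3 differences rest on 3 libraries per group.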

How the results depend on the processing

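Over the 27 calls of a Bomanin in a comparison, 357 alternatives were computed: 340 kept direction and call, 17 kept the direction but lost the call, and none reversed. The alternative without the fold threshold uses the main fit itself, so it could not lose a call, and its part of the 340 is no check. In all, 15 calls held under every alternative. One fit of all 36 libraries, which pools the spread of inputs and pulldowns, changed most counts of called Bomanins. In inputs it gave 2 for dnmnatOE over wild type uninjured and 3 at 7 dpa, 1 for the change with injury in wild type, and 0 for that in background, for both comparisons of wild type with background and for the difference in change between dnmnatOE and wild type. In pulldowns it gave 2 for the change with injury in dnmnatOE, for dnmnatOE over wild type uninjured and for both comparisons of dnmnatOE with background, and 1 each for the change with injury in background, dnmnatOE over wild type at 7 dpa and wild type over background uninjured. Without the fold threshold the counts were 5 for injury in background, 4 for injury in dnmnatOE, 2 for wild type over background at 7 dpa, 2 for the difference in change between dnmnatOE and wild type and 1 for that between wild type and background. Total-count scaling gave 3, 6, 4 and 2 for the first 4 of these (the last being BomBc3 and BomS3, without BomBc2), and 8 for dnmnatOE over background at 7 dpa. DESeq2 gave 2 for wild type over background at 7 dpa, adding BomT1. Over all alternatives that kept every library, the count for dnmnatOE over wild type in inputs ran from 2 to 6 uninjured and from 3 to 6 at 7 dpa. Without the fold threshold BomS3 is also called lower and BomBc3 higher in uninjured dnmnatOE than in wild type inputs (adjusted p in edgeR 0.00022 and 0.024). The shares of all genes called under these alternatives are not set beside the counts, which describe only the dependence on processing. Leaving out 1 library gave 0 to 3 for injury in background inputs (0 without injured background replicate 3), 1 to 2 for wild type over background uninjured inputs, and 0 to 1 for dnmnatOE over wild type in uninjured pulldowns, and for dnmnatOE over wild type in inputs it stayed at 4 uninjured and 5 at 7 dpa.

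The replicate numbers do not pair libraries: residuals of equally numbered libraries correlated between -0.029 and 0.039 in inputs and between -0.037 and 0.031 in pulldowns. With the number as a replicate block, 4 Bomanins were called for dnmnatOE over wild type in uninjured inputs and 5 at 7 dpa, and it changed no call of a Bomanin. Depth limits BomT1 in inputs (5 to 63 counts) and every Bomanin in pulldowns (0 to 66 counts).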
